A study of Mus musculus with 6 samples.

Results

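Chemokine ligands of the CXC and CX3C families are small secreted or membrane-bound proteins that steer leukocytes, and 10 of them were read in white adipose tissue of the epididymal depot, a visceral fat pad of male mice. The 10 genes are Cxcl1, Cxcl2, Cxcl5, Cxcl9, Cxcl10, Cxcl12, Cxcl13, Cxcl14, Cxcl16 and Cx3cl1, taken by gene symbol from a deposited table of 32244 genes. All 10 had enough counts to be tested, among 16121 genes that did. The study compared Eepd1 knockout mice (EKO) with wild-type mice (WT), all on the C57BL/6J background and all fed a high-fat diet for 3 months, with 3 bulk mRNA libraries per genotype. Its title names Eepd1, fat breakdown, heat production and PKA in the setting of obesity. The age of the mice, the deleted stretch of Eepd1 and the tissues in which it was deleted are not stated in the labels. Nor do they say that replicates are different mice, so the spread behind each p-value is that of these 6 samples and may be technical.

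Chemokines bind G protein-coupled receptors on the cells they attract, and the spacing of conserved cysteines gives the families their names. In obese visceral fat, chemokines from adipocytes, stromal cells and macrophages are known to draw monocytes, neutrophils and lymphocytes into the tissue. Cxcl1, Cxcl2 and Cxcl5 act on neutrophils through Cxcr2, Cxcl9 and Cxcl10 are made in response to interferon gamma and act on T and NK cells through Cxcr3, and Cxcl12 retains Cxcr4-bearing cells. Cxcl13 guides B cells through Cxcr5, while Cxcl16 and Cx3cl1 stand apart as membrane-anchored ligands that proteases release.

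The libraries held 17215072 to 18330206 counts each, and 3 counts, the limit that a count of 0 allows, corresponded to 0.154 to 0.192 CPM (TMM-scaled counts relative to a common library total), which covers counting error only. Eepd1 itself stood at 151.9, 47.7 and 116 CPM in EKO libraries, against 244, 304 and 192 CPM in WT libraries, lower in every EKO library but not past the edgeR test (adjusted p = 0.106). The authors' deposited table marks Eepd1 as significant, with a log2 fold change of -1.26 and an adjusted p of 0.0162. Several cell type lists differed in summed level. The 9 macrophage markers measured summed to 6134, 10285 and 6328 CPM in EKO libraries, against 3187, 1496 and 3371 CPM in WT libraries. The 9 adipocyte markers summed to 12067, 4782 and 9146 CPM in EKO libraries, against 24203, 24867 and 19124 CPM in WT libraries, so the marker genes of fat were abundant in all 6. WT replicate 2 carried 1836 CPM of testis markers, and EKO replicate 3 carried 194 CPM of hepatocyte markers and 95.8 CPM of testis markers, each far above the other libraries of its genotype. In bulk tissue, fewer cells of a type and less RNA per cell cannot be told apart.

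The ligands did not differ in one direction. In EKO fat 6 stood higher by fold change (Cxcl14, Cxcl13, Cx3cl1, Cxcl5, Cxcl16 and Cxcl2) and 4 stood lower (Cxcl9, Cxcl10, Cxcl1 and Cxcl12). The median log2 fold change of the 10 was 0.55, beside 0.02 over all genes tested. No ligand passed the edgeR quasi-likelihood test at an adjusted p of 0.05, and neither did any other gene (0 of 16121, 0.0%). At an unadjusted p of 0.05, 2 ligands were higher (Cxcl14 and Cx3cl1) beside 18.9% of all genes, and 2 were lower (Cxcl9 and Cxcl10) beside 13.8% of all genes, or 4 of 10 beside 32.7% in either direction. All 3 EKO libraries lay above all 3 WT libraries for Cxcl14, Cxcl16 and Cx3cl1, a pattern shared by 25.1% of all genes, and below them for Cxcl9 and Cxcl10, shared by 17.7%. Counted either way, 5 of 10 ligands did not overlap, against 42.8% of all genes, a share close to the background.

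Other tools drew the line elsewhere. DESeq2 called 3 ligands, with Cxcl14 and Cx3cl1 higher and Cxcl9 lower, beside 13.0% of the 14593 genes it adjusted called higher, 12.5% called lower and 25.4% called in all. limma-voom called none, with 0.0% of all genes called, and with sample quality weights it called Cxcl14 higher, beside 14.8% of genes, and Cxcl9 and Cxcl12 lower, beside 10.6%, or 3 ligands beside 25.4% in all. Without WT replicate 2, edgeR called 2.69% of all genes and 0 ligands. The authors' deposited table marks 2 of the 10 as significant, Cxcl14 (log2 fold change 2.46, adjusted p 0.000304, beside 5.09% of genes marked higher) and Cxcl9 (log2 fold change -1.30, adjusted p 0.0104, beside 5.04% marked lower), or 10.1% in all of the genes with an adjusted p in it. In the same deposited table Cx3cl1 has an adjusted p of 0.0541 and is not marked.

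**Figure D1:**
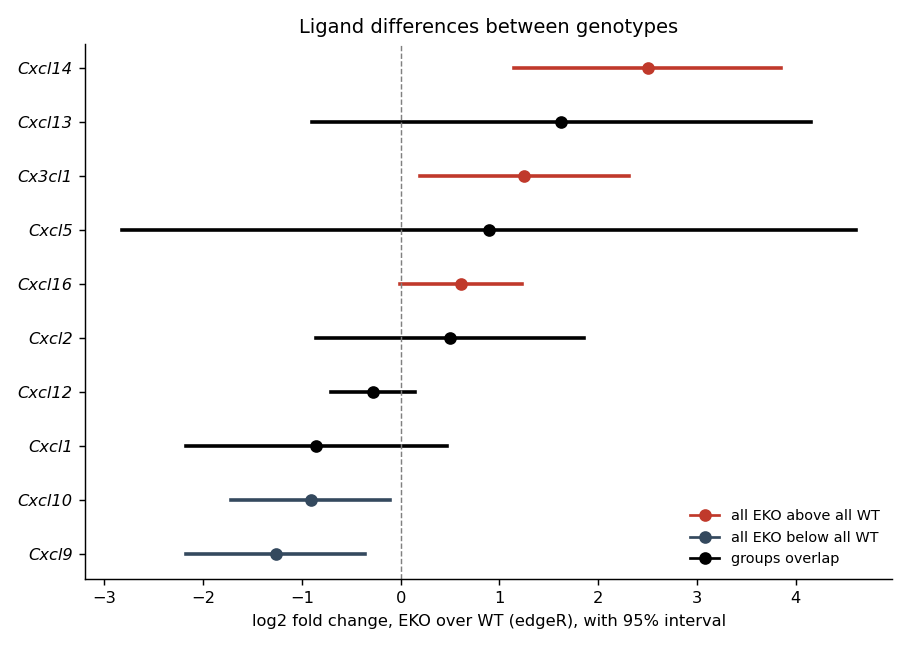
Log2 fold change of each ligand, EKO over WT, as a point with its 95% interval from the edgeR fit (x axis), with ligands ordered by size down the page. The intervals of Cxcl14 and Cx3cl1 lie above 0 and those of Cxcl9 and Cxcl10 below it, while those of the other 6 include 0.

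One library stood at an edge for most ligands. EKO replicate 2 had the highest value of all 6 libraries for Cxcl5, Cxcl14, Cxcl16 and Cx3cl1 and the lowest for Cxcl9 and Cxcl10, an extreme for 6 of 10 ligands. It was also the library with the highest macrophage sum and the lowest adipocyte sum. The 6 mast cell markers were all higher in EKO fat and highest in that library, with sums of 139, 791 and 339 CPM in EKO libraries, against 49.7, 68.6 and 60.8 CPM in WT libraries. WT replicate 2 was the lowest for Cxcl2, Cxcl14, Cxcl16 and Cx3cl1 and the highest for Cxcl9, an extreme for 5 ligands, and it had the lowest macrophage sum. How often each library was an extreme over all genes was not computed, so these counts cannot be read as particular to the ligands. The part of these shifts in macrophage, adipocyte and mast cell markers in the ligand differences was not tested.

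**Figure D2:**
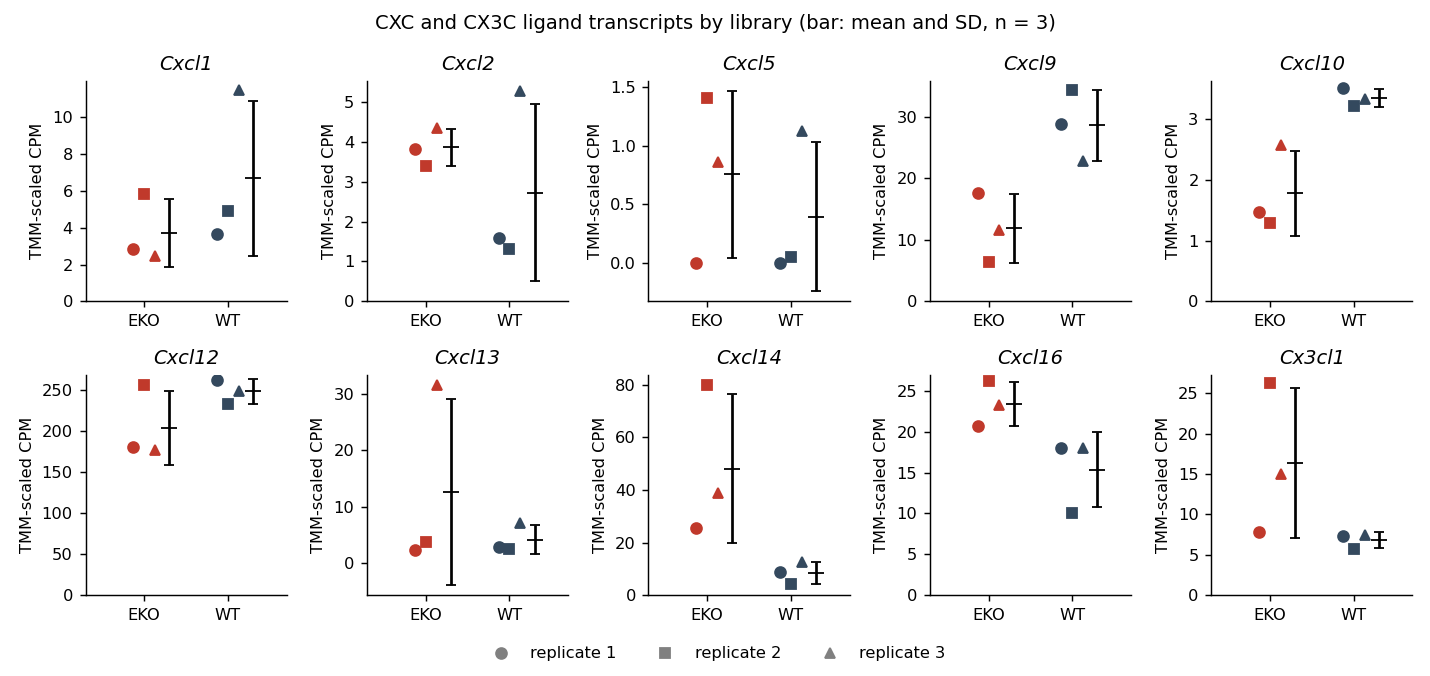
TMM-scaled CPM of each ligand (y axes, linear, each with its own range) in the EKO and WT libraries, with a marker shape for each replicate and a bar for the mean and SD (n = 3). Cxcl9, Cxcl10, Cxcl14, Cxcl16 and Cx3cl1 separate the genotypes without overlap, and the high Cxcl13 mean of EKO rests on replicate 3 at 31.6 CPM.

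Cxcl14, a chemokine that is made in skin and fat stroma and attracts monocyte-lineage cells, had the highest fold of the family. Its gene (ENSMUSG00000021508, protein coding) lies at chr13:56288643-56296551 on the minus strand of GRCm38. It reached 25.5, 80.0 and 38.7 CPM in EKO libraries, against 8.76, 4.14 and 12.5 CPM in WT libraries. The lowest EKO library lay above the highest WT library, although the EKO libraries themselves spread widely. The means were 48.1 ± 28.4 CPM in EKO and 8.48 ± 4.20 CPM in WT (SD, n = 3 each), a 5.66-fold difference. On the log2 scale this was 2.50 ± 0.56 (SE, 95% interval 1.15 to 3.85), with an edgeR adjusted p of 0.0630 and a DESeq2 adjusted p of 0.000193. Over all alternatives tried, the adjusted p ranged from 0.000193 to 0.229. Leaving out each library in turn gave log2 fold changes between 1.89, without EKO replicate 2, and 2.90.

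The promoter window of Cxcl14 is shown because this ligand stood higher in EKO fat where the interferon-responsive pair described next stood lower. Windows run from 250 bases before to 50 bases after the RefSeq start (GRCm38.p6), 5′ to 3′ on the strand of the gene, and capitals mark matches to a motif on either strand. The letters searched were GGGA, any base, TT, any base and CC for NF-kappaB, and GAAA, any 2 bases and GAAA for the interferon-stimulated response element, and they were set with some of these windows in view. Of 32851 promoters of the same length, counted with 1 chromosome left out, 1.20% held the first and 3.44% the second. The Cxcl14 window (chr13:56296502-56296801, minus strand) reads as follows.
Cxcl14: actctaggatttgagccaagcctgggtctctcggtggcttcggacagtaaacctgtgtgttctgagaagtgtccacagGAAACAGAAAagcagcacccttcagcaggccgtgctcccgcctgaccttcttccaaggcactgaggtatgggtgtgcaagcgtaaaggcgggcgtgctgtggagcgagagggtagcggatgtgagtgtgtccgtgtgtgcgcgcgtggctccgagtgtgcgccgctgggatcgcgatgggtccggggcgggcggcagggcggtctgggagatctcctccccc
It held 1 match of the second kind, GAAACAGAAA, starting 172 bases before the start. This is a match of letters and was not tested as a binding site.

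Levels of different genes were compared per kilobase of exon. By mean, Cxcl14 was first of the 10 in EKO libraries, at 26.3 ± 15.5 CPM per kb. Cxcl12 was at 24.9 ± 5.48 CPM per kb there, and these did not differ beyond their spread. In WT libraries Cxcl12 stood alone at the top, at 30.3 ± 1.84 CPM per kb, and Cxcl14 was the fourth at 4.64 ± 2.30 CPM per kb (SD, n = 3 each). As a share of all counts of the 10 ligands, Cxcl14 took 9.76%, 19.5% and 12.6% in EKO libraries, against 2.60%, 1.39% and 3.71% in WT libraries. A two-sided exact permutation test of such a share over 3 against 3 libraries cannot go below 0.1, and it gave 0.1 for Cxcl14.

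Set against the 10 markers of adipocyte progenitors and fibroblasts, Cxcl14 kept its separation. The summed marker level overlapped between genotypes (13633, 14362 and 12393 CPM in EKO libraries, against 14441, 17788 and 12908 CPM in WT libraries). The markers were not level one by one, with 9 of the 10 higher by fold change in EKO fat and 1 lower. Of them 5 were higher without overlap, beside 25.1% of all genes, and 1 was lower without overlap, beside 17.7%. There were 1.88, 5.57 and 3.13 Cxcl14 counts per 1000 marker counts in EKO libraries, against 0.609, 0.234 and 0.972 in WT libraries. The geometric means of this ratio differed 6.18-fold (log2 difference 2.63, exact permutation p = 0.1, the smallest possible). Without Gsn, the most abundant marker of the list, they differed 3.04-fold (log2 difference 1.60). Per 1000 adipocyte marker counts the corresponding difference was 15.6-fold (log2 difference 3.96, 3.13 without EKO replicate 2 and 4.62 without EKO replicate 1), where the adipocyte sum was itself lower in all EKO libraries.

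Cxcl12, the stromal chemokine that binds Cxcr4 and Ackr3, was the most abundant ligand per library in counts. Its gene (ENSMUSG00000061353) lies at chr6:117168535-117181367, plus strand. It stood at 179.6, 255 and 176 CPM in EKO libraries, against 262, 232 and 249 CPM in WT libraries. EKO replicate 2 lay among the WT libraries and the other 2 lay below them. The means were 204 ± 44.8 CPM in EKO and 248 ± 15.0 CPM in WT (SD, n = 3 each), a log2 fold change of -0.28 ± 0.18 (95% interval -0.71 to 0.14, edgeR adjusted p = 0.297). With sample quality weights limma-voom gave an adjusted p of 0.0352, the lowest of a range that went up to 0.569. Its share of the ligand counts was 68.6%, 62.3% and 57.4% in EKO libraries, against 77.9%, 77.8% and 73.6% in WT libraries, lower in every EKO library (exact permutation p = 0.1). Relative to the progenitor and fibroblast markers Cxcl12 overlapped between genotypes, with a log2 difference of -0.15. Without Gsn the same log2 difference was -1.18 and the groups no longer overlapped.

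**Figure D3:**
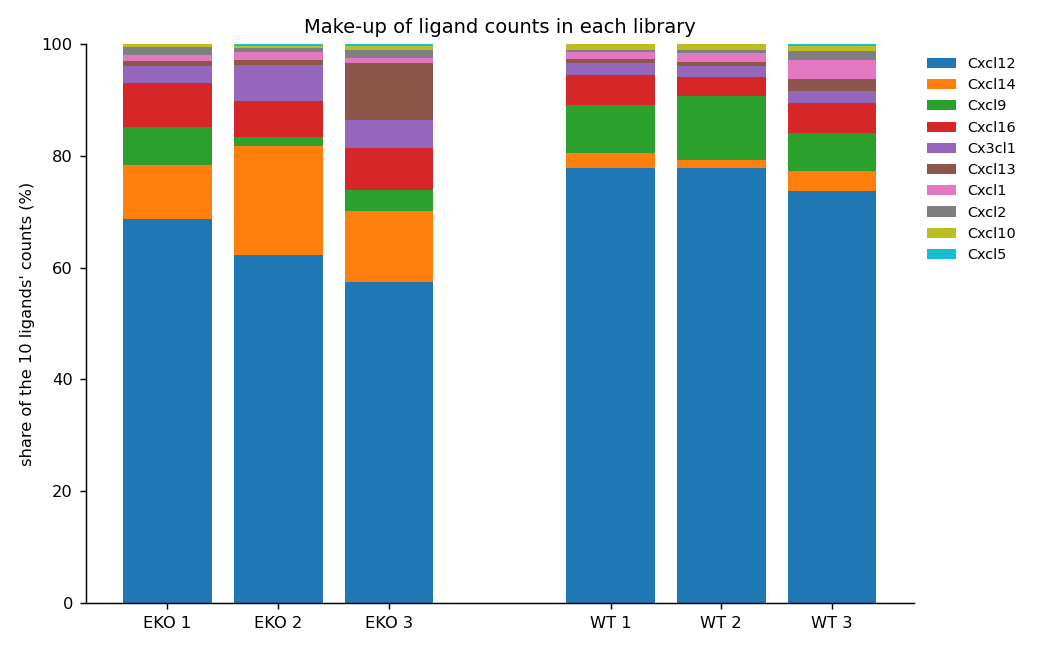
Stacked bars of the share that each ligand took of the counts of all 10 ligands (y axis, %), one bar per library. Cxcl12 takes 57.4% to 68.6% in EKO libraries and 73.6% to 77.9% in WT libraries, while Cxcl14 takes 9.76% to 19.5% in EKO libraries and 1.39% to 3.71% in WT libraries.

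Cxcl9 and Cxcl10, the interferon gamma-inducible ligands of Cxcr3, were both lower in every EKO library. The genes are neighbours on the minus strand of chromosome 5, Cxcl9 (ENSMUSG00000029417) at chr5:92321347-92328079 and Cxcl10 (ENSMUSG00000034855) at chr5:92346638-92348889. Cxcl9 reached 17.6, 6.41 and 11.7 CPM in EKO libraries, against 28.8, 34.3 and 22.7 CPM in WT libraries. The highest EKO library was below the lowest WT library. Means were 11.9 ± 5.61 CPM in EKO and 28.6 ± 5.79 CPM in WT (SD, n = 3 each), 2.40-fold lower. The log2 fold change was -1.26 ± 0.38 (95% interval -2.17 to -0.36), with an adjusted p of 0.0819 from edgeR and 0.00716 from DESeq2, the lowest of a range up to 0.233. Leaving out each library in turn gave log2 fold changes between -1.64 and -0.98.

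Cxcl10 was scarcer, at 1.47, 1.28 and 2.57 CPM in EKO libraries, against 3.50, 3.21 and 3.34 CPM in WT libraries. The WT libraries lay close together and above all EKO libraries. Means were 1.78 ± 0.696 CPM in EKO and 3.35 ± 0.146 CPM in WT (SD, n = 3 each), 1.88-fold lower. The log2 fold change was -0.91 ± 0.33 (95% interval -1.71 to -0.11, edgeR adjusted p = 0.120, range over alternatives 0.0658 to 0.388). Leaving out each library in turn gave between -1.27 and -0.75. The ratio of Cxcl9 to Cxcl10 counts overlapped between genotypes, with a log2 difference of -0.39.

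The promoter windows of the pair are shown to set the letters upstream of these co-lying genes side by side, Cxcl9 at chr5:92328030-92328329 and Cxcl10 at chr5:92348840-92349139, both minus strand.
Cxcl9: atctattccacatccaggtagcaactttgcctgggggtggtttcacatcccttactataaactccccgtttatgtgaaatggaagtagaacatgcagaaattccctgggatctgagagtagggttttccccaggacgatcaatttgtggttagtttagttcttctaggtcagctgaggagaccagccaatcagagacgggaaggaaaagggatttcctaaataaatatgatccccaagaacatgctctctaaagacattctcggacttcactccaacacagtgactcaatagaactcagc
Cxcl10: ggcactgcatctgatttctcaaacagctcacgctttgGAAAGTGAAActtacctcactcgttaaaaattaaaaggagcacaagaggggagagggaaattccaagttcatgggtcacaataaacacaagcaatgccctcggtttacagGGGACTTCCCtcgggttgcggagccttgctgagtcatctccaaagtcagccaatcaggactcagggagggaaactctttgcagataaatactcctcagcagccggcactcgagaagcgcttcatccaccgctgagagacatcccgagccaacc
The Cxcl10 window held an NF-kappaB match, GGGACTTCCC, starting 103 bases before the start, and an interferon-stimulated response element match, GAAAGTGAAA, starting 213 bases before it. The Cxcl9 window held neither string, which says only that these letters are not in that window.

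Cxcl11, the third ligand of Cxcr3 in this cluster and annotated in the deposited table as a polymorphic pseudogene, had 3, 1 and 3 counts in EKO libraries, against 23, 19 and 15 counts in WT libraries. The summed counts, 7 in EKO and 57 in WT, gave a scaled ratio of 0.136 (95% exact binomial interval 0.0524 to 0.299, counting error only). The authors' deposited table marks Cxcl11 as significant, with an adjusted p of 0.0118, and edgeR gave 0.0628. Strand matters at this locus. In the GENCODE M21 annotation, Art3 lies on the opposite strand across Cxcl10 and Cxcl11 and shares 133 of the 2252 exon bases of Cxcl10, and Gm2673, an antisense pseudogene, shares 1582 bases with Cxcl11. Art3 counts were 1000, 187 and 870 in EKO libraries, against 2695, 5257 and 1961 in WT libraries, lower in every EKO library as well (log2 fold change -2.16 ± 0.65, edgeR adjusted p = 0.0838). The sources used here give no strand setting for the counting, so reads of Cxcl10 and Art3 in the shared stretch cannot be told apart. Cxcl9 shares no exon with Art3 in that annotation.

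**Figure D4:**
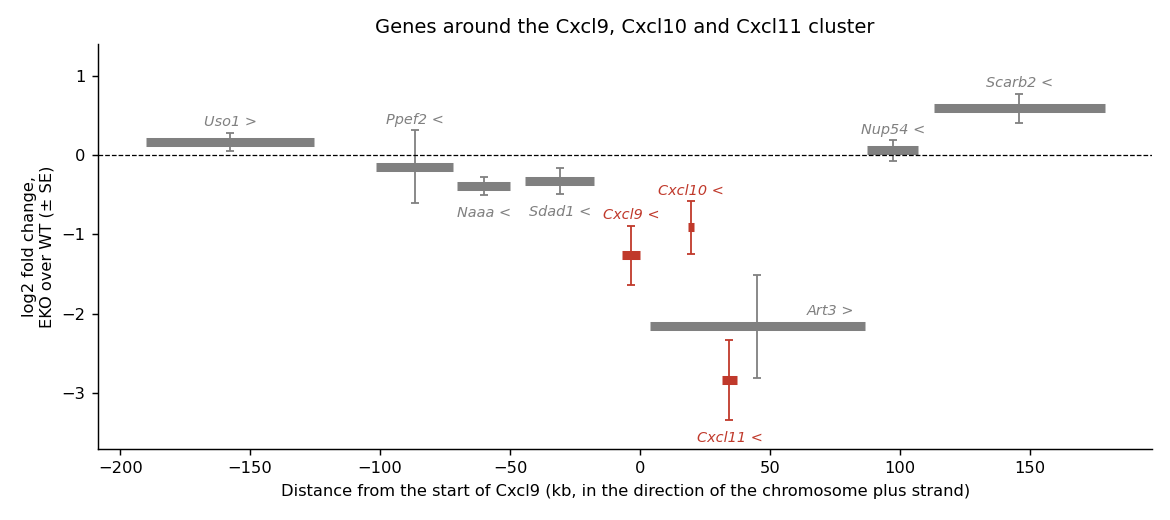
Genes around the Cxcl9, Cxcl10 and Cxcl11 cluster, drawn to scale by distance from the start of Cxcl9 in kb (x axis) at their log2 fold change, EKO over WT, with ± SE (y axis), where > and < give the strand. Cxcl9 is at -1.26, Cxcl10 at -0.91, Cxcl11 at -2.83 and the overlapping Art3 at -2.16. These lie below Naaa at -0.39, Sdad1 at -0.32, Nup54 at 0.06 and Scarb2 at 0.59. Naaa was lower in every EKO library too (edgeR adjusted p = 0.0773), a pattern shared by 17.7% of all genes.

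In sum, markers of the T and NK cells that carry Cxcr3 overlapped between genotypes. Of the 10 markers, 2 were higher in EKO fat without overlap, beside 25.1% of all genes, and 0 were lower in this way. The 10 T and NK cell markers summed to 14.4, 14.4 and 28.5 CPM in EKO libraries, against 15.4, 15.0 and 18.3 CPM in WT libraries. Per 1000 of those marker counts there were 104, 91.3 and 91.1 Cxcl10 counts in EKO libraries, against 229, 216 and 184 in WT libraries, a 2.19-fold difference with no overlap (exact permutation p = 0.1). The corresponding ratio of Cxcl9 was 2.88-fold lower, also with no overlap. Per 1000 macrophage marker counts Cxcl9 stood at 2.88, 0.627 and 1.85 in EKO libraries, against 9.05, 23.0 and 6.75 in WT libraries, 7.49-fold lower (log2 difference -2.91, and -2.28 without EKO replicate 2). On the same measure Cxcl10 was 5.71-fold lower. Because the macrophage sum was higher in every EKO library, these ratios combine a higher denominator with a lower ligand level.

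Of 14 tested genes of interferon gamma signalling, 5 were higher and 9 lower in EKO fat. None was called by edgeR. At an unadjusted p of 0.05, 3 were higher, beside 18.9% of all genes, and 4 were lower, beside 13.8%. DESeq2 called 2 higher and 2 lower, beside 13.0% and 12.5% of the genes it adjusted. The median log2 fold change was -0.21 beside 0.02 over all genes. The 5 lower genes without overlap, beside 17.7% of all genes, were Irf1, Gbp2, Gbp3, Gbp5 and Igtp. Of these, the guanylate-binding protein Gbp3 stood at 23.1, 12.3 and 20.02 CPM in EKO libraries, against 26.7, 37.6 and 28.6 CPM in WT libraries (log2 fold change -0.74 ± 0.27, edgeR adjusted p = 0.115). Its order of libraries within EKO was that of Cxcl9, with replicate 2 the lowest and replicate 1 the highest. Within WT the orders differed. Replicate 2 was the highest for both genes, but the lowest was replicate 1 for Gbp3 and replicate 3 for Cxcl9. The 3 genes that were higher without overlap, beside 25.1% of all genes, were the receptor subunit Ifngr2, the kinase Jak1 and the GTPase Irgm1. Irgm1 was at 32.0, 31.9 and 31.6 CPM in EKO libraries, against 22.9, 24.3 and 23.8 CPM in WT libraries (log2 fold change 0.43 ± 0.10, edgeR adjusted p = 0.0643), and Ifngr2 averaged 111 ± 18.4 CPM in EKO and 53.7 ± 16.4 CPM in WT (SD, n = 3 each). The receptor Cxcr3 overlapped, at 3.89, 2.82 and 4.46 CPM in EKO libraries, against 3.39, 1.80 and 3.90 CPM in WT libraries.

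The membrane-anchored ligands Cx3cl1 and Cxcl16 were both higher in every EKO library. Cx3cl1, known as fractalkine and the ligand of Cx3cr1 on monocytes and macrophages, is encoded at chr8:94772009-94782427 on the plus strand (ENSMUSG00000031778). It was measured at 7.78, 26.2 and 15.0 CPM in EKO libraries, against 7.35, 5.72 and 7.49 CPM in WT libraries. EKO replicate 1 lay just above the highest WT library and the other 2 well above it. Means were 16.3 ± 9.30 CPM in EKO and 6.85 ± 0.986 CPM in WT (SD, n = 3 each), a 2.38-fold difference. The log2 fold change was 1.25 ± 0.44 (95% interval 0.20 to 2.31), with an adjusted p of 0.110 from edgeR and 0.0394 from DESeq2, the lowest of a range up to 0.355. With each library left out in turn, the log2 fold change lay between 0.71, without EKO replicate 2, and 1.60.

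Cx3cl1 is made by endothelium in many tissues, and the 8 endothelial markers were all lower in EKO fat, summing to 885, 501 and 700.3 CPM in EKO libraries, against 1406, 1170.1 and 1452 CPM in WT libraries. Per 1000 endothelial marker counts there were 8.83, 52.4 and 21.4 Cx3cl1 counts in EKO libraries, against 5.25, 4.91 and 5.18 in WT libraries. The WT libraries were nearly alike and all EKO libraries lay above them, 4.21-fold by geometric mean (log2 difference 2.07, exact permutation p = 0.1). Without EKO replicate 2 that log2 difference was 1.43, and without EKO replicate 1 it was 2.71. Per 1000 macrophage marker counts, Cx3cl1 overlapped between genotypes at 1.27, 2.55 and 2.37 in EKO libraries, against 2.31, 3.84 and 2.23 in WT libraries. Its receptor Cx3cr1 was scarce and overlapped, at 1.18, 4.30 and 4.17 CPM in EKO libraries, against 1.13, 2.07 and 4.36 CPM in WT libraries.

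Cxcl16, a scavenger receptor for oxidized lipid and the ligand of Cxcr6 on T and NK cells, lies at chr11:70453983-70459984 on the minus strand (ENSMUSG00000018920). It stood at 20.8, 26.2 and 23.3 CPM in EKO libraries, against 18.0, 10.02 and 18.0 CPM in WT libraries. All EKO libraries were above all WT libraries, and WT replicate 2 was the lowest. Means were 23.4 ± 2.71 CPM in EKO and 15.3 ± 4.60 CPM in WT (SD, n = 3 each), 1.53-fold higher in EKO. The log2 fold change was 0.61 ± 0.26 (95% interval -0.01 to 1.23, edgeR adjusted p = 0.157, range over alternatives 0.101 to 0.453), and with each library left out in turn it lay between 0.32, without WT replicate 2, and 0.75. Zmynd15, on the opposite strand, shares 552 exon bases with Cxcl16. Its counts were 83, 85 and 170 in EKO libraries, against 113, 325 and 137 in WT libraries, fewer than those of Cxcl16 in all libraries but WT replicate 2, and reads in the shared stretch cannot be told apart either.

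Macrophages are a main source of Cxcl16, and on that scale its order was reversed. There were 3.39, 2.55 and 3.69 Cxcl16 counts per 1000 macrophage marker counts in EKO libraries, against 5.65, 6.72 and 5.35 in WT libraries. The groups did not overlap and the ratio was 1.85-fold lower in EKO (exact permutation p = 0.1). The higher Cxcl16 level in EKO tissue was thus smaller than the difference in the macrophage sum.

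**Figure D5:**
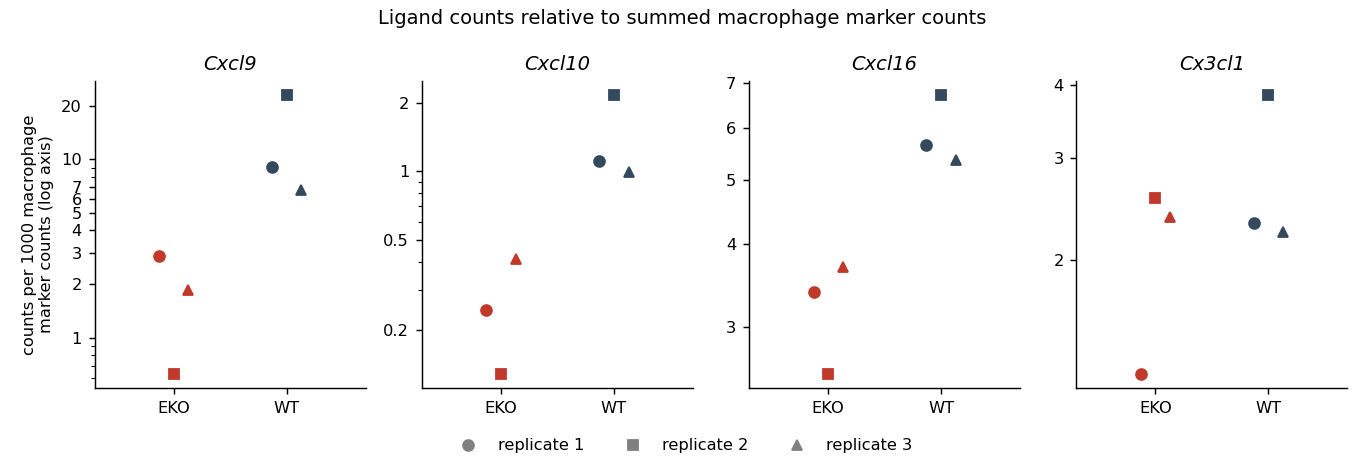
Counts of Cxcl9, Cxcl10, Cxcl16 and Cx3cl1 per 1000 counts of the summed macrophage markers (log y axes), one point per library with a marker shape for each replicate. Cxcl9, Cxcl10 and Cxcl16 are lower in all EKO libraries on this scale, although the Cxcl16 level is higher, and Cx3cl1 overlaps.

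Of 5 proteases known to release or trim chemokines, 4 were higher in EKO fat, 3 of them without overlap, beside 25.1% of all genes. None was called by edgeR over all 6 libraries, with 3 higher at an unadjusted p of 0.05, beside 18.9% of all genes. DESeq2 called 2 higher, Adam17 and Mmp12, beside 13.0% of the genes it adjusted. Adam10, which sheds Cx3cl1 and Cxcl16 constitutively, averaged 185 ± 33.5 CPM in EKO and 127 ± 22.3 CPM in WT (log2 fold change 0.55 ± 0.19, adjusted p = 0.107 from edgeR, SD, n = 3 each). Adam17, the inducible sheddase, averaged 137 ± 22.8 CPM in EKO and 73.8 ± 22.9 CPM in WT (log2 fold change 0.89 ± 0.26, adjusted p = 0.0811 from edgeR and 0.0262 from DESeq2, SD, n = 3 each). Mmp12, a macrophage elastase that cleaves several CXC ligands, stood at 3699, 9230 and 4670 CPM in EKO libraries, against 677, 108 and 818 CPM in WT libraries (log2 fold change 3.46 ± 0.82, adjusted p = 0.0646 from edgeR and 2.22e-05 from DESeq2). Over all alternatives its adjusted p reached 0.229, and without WT replicate 2 edgeR gave 0.0443. Dpp4, a peptidase that trims Cxcl10 and Cxcl12, had a log2 fold change of -0.66 with overlap. That of Mmp9 was 0.30 ± 0.40 (edgeR adjusted p = 0.620).

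Cxcl1, Cxcl2 and Cxcl5, the ligands of Cxcr2 on neutrophils, were scarce in both genotypes and overlapped. They lie in one cluster on the plus strand of chromosome 5, with Cxcl5 (ENSMUSG00000029371) at chr5:90759360-90761624, Cxcl1 (ENSMUSG00000029380) at chr5:90891241-90893115 and Cxcl2 (ENSMUSG00000058427) at chr5:90903871-90905938. Their neighbouring paralogs Cxcl1 and Cxcl2 are shown by their promoter windows, at chr5:90890995-90891294 and chr5:90903649-90903948, because the counts of this pair stood in different proportion in the 2 genotypes.
Cxcl1: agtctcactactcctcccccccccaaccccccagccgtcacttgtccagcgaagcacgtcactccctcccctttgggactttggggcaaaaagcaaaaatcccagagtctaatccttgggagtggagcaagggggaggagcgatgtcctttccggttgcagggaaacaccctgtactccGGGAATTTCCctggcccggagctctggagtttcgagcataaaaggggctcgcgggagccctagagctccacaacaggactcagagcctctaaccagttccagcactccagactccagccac
Cxcl2: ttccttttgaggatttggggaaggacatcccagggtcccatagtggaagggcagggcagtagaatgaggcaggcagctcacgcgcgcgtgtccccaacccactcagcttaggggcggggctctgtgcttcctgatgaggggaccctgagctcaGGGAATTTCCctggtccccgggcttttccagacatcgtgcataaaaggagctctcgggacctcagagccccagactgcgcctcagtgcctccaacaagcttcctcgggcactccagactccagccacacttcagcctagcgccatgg
The string GGGAATTTCC, a match to the NF-kappaB letters, begins 71 bases before the start of Cxcl1 and 97 bases before that of Cxcl2. Of the 8 ligands with a window, 3 held an NF-kappaB match, these and Cxcl10.

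Cxcl1 stood at 2.83, 5.84 and 2.46 CPM in EKO libraries, against 3.67, 4.90 and 11.5 CPM in WT libraries. WT replicate 3 was the highest and the rest overlapped. Means were 3.71 ± 1.85 CPM in EKO and 6.69 ± 4.21 CPM in WT (SD, n = 3 each), with a log2 fold change of -0.85 ± 0.55 (95% interval -2.17 to 0.47, edgeR adjusted p = 0.311). Without WT replicate 3 the log2 fold change was -0.20.

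Cxcl2 stood at 3.83, 3.40 and 4.35 CPM in EKO libraries, against 1.58, 1.31 and 5.29 CPM in WT libraries. The EKO libraries lay between WT replicate 3 and the other 2 WT libraries. The log2 fold change was 0.50 ± 0.56 (95% interval -0.85 to 1.85, edgeR adjusted p = 0.557), and 1.42 without WT replicate 3.

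Within a library, however, the 2 neighbours were in different proportion. There were 740.5, 1710.3 and 569 Cxcl1 counts per 1000 Cxcl2 counts in EKO libraries, against 2298, 3694 and 2169 in WT libraries. All EKO libraries lay below all WT libraries, a log2 difference of -1.56 (2.95-fold lower, exact permutation p = 0.1). Over the 19 ratios computed, 12 did not overlap, 6 in each direction, and a p of 0.1 had a Benjamini-Hochberg adjusted value of 0.158. Several of the 19 divide by macrophage, adipocyte or endothelial sums, which separated the genotypes themselves, and no share for other genes was computed. The ratio of Cxcl1 to Cxcl2 does not depend on the scaling between libraries, and it separated the genotypes where neither gene did alone.

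Cxcl5 had 0, 22 and 15 counts in EKO libraries, against 0, 1 and 22 counts in WT libraries. Each genotype held a library with no count and a library with 22. The log2 fold change was 0.89 ± 1.54 (95% interval -2.82 to 4.61, edgeR adjusted p = 0.705), an interval too wide to give a direction, and it was 4.46 without WT replicate 3 and 0.08 without EKO replicate 2. Cxcl3, the near neighbour in the cluster, was at or near the limit of 3 counts in all libraries and was too low to test.

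Neutrophil genes were scarce too. Of 9 neutrophil markers, 8 were in the table and 4 could be tested. They summed to 17.0, 19.3 and 12.5 CPM in EKO libraries, against 12.9, 8.33 and 16.7 CPM in WT libraries, most of it Csf3r, which monocytes also express. The granule genes Camp and Ngp were at or near 0 counts in all libraries, and the receptor Cxcr2 did not exceed 0.411 CPM. The ratios of Cxcl1, Cxcl2 and Cxcl5 to the neutrophil sum all overlapped between genotypes. Without Csf3r, the most abundant marker, there were 642, 753 and 707 Cxcl1 counts per 1000 marker counts in EKO libraries, against 1351, 1574 and 1803 in WT libraries, with no overlap (log2 difference -1.16, exact permutation p = 0.1), while the ratios of Cxcl2 and Cxcl5 still overlapped.

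Of 13 tested genes of NF-kappaB and IL-1 or TNF signalling, 12 were higher and 1 lower in EKO fat, with a median log2 fold change of 0.36 beside 0.02 over all genes. None was called by edgeR or by DESeq2. At an unadjusted p of 0.05, 3 were higher, beside 18.9% of all genes. Nfkb1 and Ikbkb, a subunit and a kinase of the pathway, were the 2 higher without overlap, beside 25.1% of all genes, with log2 fold changes of 0.40 ± 0.14 and 0.36 ± 0.12. The adhesion molecule Icam1 (0.76 ± 0.31) and the interleukin receptor Il1r1 (0.80 ± 0.34) had larger log2 fold changes and overlapped.

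The platelet chemokines of the same cluster were measured as well. Ppbp was at 2.36, 1.35 and 0.858 CPM in EKO libraries, against 2.83, 3.65 and 4.77 CPM in WT libraries (log2 fold change -1.30 ± 0.44, edgeR adjusted p = 0.102), lower in every EKO library. Red cell markers, which mark blood in the tissue, summed to 174, 249.5 and 421 CPM in EKO libraries, against 881, 1613 and 1242 CPM in WT libraries, and their part in the Ppbp values was not tested. Pf4 overlapped, with a log2 fold change of 0.35.

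Cxcl13, the B cell chemokine of lymphoid follicles and of the milky spots and fat-associated lymphoid clusters of visceral fat, had the widest spread among EKO libraries of the 10 ligands, with a coefficient of variation of 131%. Its gene (ENSMUSG00000023078) lies at chr5:95956951-95961068, plus strand. It stood at 2.30, 3.78 and 31.6 CPM in EKO libraries, against 2.77, 2.40 and 7.03 CPM in WT libraries. EKO replicate 3 was far above the rest, while EKO replicate 1 was the lowest of all 6 and EKO replicate 2 lay among the WT libraries. Means were 12.6 ± 16.5 CPM in EKO and 4.07 ± 2.58 CPM in WT (SD, n = 3 each), with a log2 fold change of 1.63 ± 1.05 (95% interval -0.90 to 4.15, edgeR adjusted p = 0.312). Without EKO replicate 3 the log2 fold change changed sign to -0.42 (edgeR adjusted p = 0.663).

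B cell markers were highest in the same library. The 7 of them summed to 14.6, 15.4 and 83.4 CPM in EKO libraries, against 9.33, 33.3 and 39.9 CPM in WT libraries, and Cxcr5, the receptor of Cxcl13, stood at 0.649, 1.35 and 4.86 CPM in EKO libraries, against 0.452, 2.18 and 3.39 CPM in WT libraries. Per 1000 B cell marker counts, Cxcl13 overlapped between genotypes. Mesothelial markers, of the cells that line the fat pad and are a known source of Cxcl13, summed to 75.1, 35.8 and 207 CPM in EKO libraries, against 125, 360.3 and 336 CPM in WT libraries. Per 1000 mesothelial marker counts there were 31.0, 107 and 153 Cxcl13 counts in EKO libraries, against 22.4, 6.73 and 21.0 in WT libraries, 5.43-fold higher in EKO with no overlap (log2 difference 2.44, exact permutation p = 0.1). Without EKO replicate 1 that log2 difference was 3.12, and without EKO replicate 3 it was 1.97. The part of B cells, mesothelium or the hepatocyte and testis transcripts of EKO replicate 3 in its Cxcl13 level was not tested.

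Among 4 tested genes of lymphoid chemokine signalling, all 4 were higher in EKO fat and 1 did not overlap, a share like the 25.1% of all genes. That gene was Tnfrsf11a, the receptor RANK, at 91.5 ± 15.9 CPM in EKO and 32.4 ± 18.4 CPM in WT (SD, n = 3 each; log2 fold change 1.50 ± 0.45, adjusted p = 0.0847 from edgeR and 0.0119 from DESeq2). It is also expressed by macrophages and their osteoclast relatives.

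Receptor transcripts mostly overlapped. Of 9 CXC and CX3C receptor genes 7 were tested, 5 higher and 2 lower, and none was called by edgeR. At an unadjusted p of 0.05, 1 was lower, beside 13.8% of all genes. The one without overlap, beside 17.7% of all genes lower in this way, was Ackr3, the scavenging receptor that takes up Cxcl12, at 53.1, 33.0 and 44.5 CPM in EKO libraries, against 70.9, 59.0 and 81.6 CPM in WT libraries. Its log2 fold change was -0.69 ± 0.21, with an adjusted p of 0.0819 from edgeR and 0.0168 from DESeq2. Cxcr4, the signalling receptor of Cxcl12, averaged 37.7 ± 5.61 CPM in EKO and 30.8 ± 12.8 CPM in WT (SD, n = 3 each) and overlapped. Cxcr6, the receptor of Cxcl16, differed by 0.11 ± 0.31 on the log2 scale and overlapped as well. So did Ackr1, with a log2 fold change of -0.28 ± 0.32 (edgeR adjusted p = 0.566). Cxcr1 and Cxcr2 were too low to test.

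Ordered by mean level per kilobase, the ligands ran in EKO libraries as Cxcl14, Cxcl12, Cxcl13, Cxcl16, Cx3cl1, Cxcl9, Cxcl1, Cxcl2, Cxcl10 and Cxcl5. The order in WT libraries was Cxcl12, Cxcl9, Cxcl16, Cxcl14, Cxcl1, Cxcl13, Cx3cl1, Cxcl10, Cxcl2 and Cxcl5. In EKO libraries, neighbours in this order separated without overlap only between Cxcl16 (7.75 ± 0.896 CPM per kb) and Cx3cl1 (4.16 ± 2.37) and between Cxcl2 (1.87 ± 0.229) and Cxcl10 (0.789 ± 0.309). In WT libraries, Cxcl12 stood clear of Cxcl9 (9.49 ± 1.92 CPM per kb) and Cxcl9 of Cxcl16 (5.08 ± 1.52), as did Cxcl13 (3.54 ± 2.24) of Cx3cl1 (1.74 ± 0.251) and Cxcl2 (1.32 ± 1.07) of Cxcl5 (0.212 ± 0.342). By mean level, Cxcl9 was thus the second ligand of WT fat and the sixth of EKO fat. By the same measure Cxcl14 was the fourth of WT fat and the first of EKO fat. Library by library, Cxcl14 was first only in EKO replicate 2. Cxcl12 was first in EKO replicate 1 and Cxcl13 in EKO replicate 3. Over the 6 libraries the rank of Cxcl14 ran from 1 to 5 and that of Cxcl9 from 2 to 7. The summed level of the 10 ligands overlapped, at 262, 409.8 and 307 CPM in EKO libraries, against 337, 298 and 338 CPM in WT libraries.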

How the data were processed

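Total RNA was extracted with TRIzol and sequenced as mRNA libraries on the Illumina platform, per the labels' protocols. GRCm38 was the genome build, per the submitters' processing notes, while for read alignment, counting and strand use the sources used here name no tool. The authors deposited raw read counts for 32244 genes in 6 libraries, per the file headers. Per the file headers the same deposited table holds the authors' mean signal per gene, fold change (a ratio of EKO to WT), log2 fold change, p-value and adjusted p-value.

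Groups are the labelled genotypes. All genes were tested with the edgeR quasi-likelihood test (edgeR 4.0.16, R 4.3.3) after filterByExpr and TMM scaling, with genotype alone as covariate and Benjamini-Hochberg adjustment over 16121 genes at 0.05. Levels are TMM-scaled CPM. Log ratios within a library, with 0.5 added to each count, and shares were compared with two-sided exact permutation tests over the 6 samples. Alternatives were other scalings and count filters, DESeq2 1.42.0, limma 3.58.1 (voom, with and without sample quality weights), a replicate block and each library left out. The procedure was tested on simulated data. Library totals were 17215072 to 18330206 counts, and the common biological coefficient of variation was 37.0%. Promoters are RefSeq windows for 8 of the 10 ligands (GRCm38.p6), and exon lengths and overlaps come from GENCODE M21.

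The 10 ligands, the pathway and marker lists, and the tests were chosen with earlier results of these data known. The text names all ligands, the listed receptors, proteases and other CXC ligands, and up to 4 genes of each pathway list with the smallest p, while Irf1, Gbp2, Gbp5 and Igtp, the genes that overlap or lie near a ligand, and Gsn were named after their values were seen. Not analysed here were Cxcl15, Cxcl17, Ifng, Il17a and Itgam.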

Additional observations from a re-analysis of the deposited data

How the results depend on the processing

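The count of genes called was 0 with edgeR, with 5264 genes at an unadjusted p under 0.05, and it was 3713 with DESeq2, 4101 with limma-voom and quality weights, and between 0 and 443 with each library left out, where 443 came without WT replicate 2. The count of ligands called was 0 with edgeR, 3 with DESeq2, 3 with quality weights, and between 0 and 0 with each library left out. Ligands whose groups do not overlap numbered 5, and between 5 and 7 with each library left out. Ratios without overlap numbered 12, and between 12 and 14. Leaving a library out can only keep or raise either count, so these ranges are no check of stability. The causes were not tested. Same-numbered libraries had correlations of deviations of 0.27, -0.31 and -0.35. Without the same values for differently numbered libraries, these cannot decide whether replicate numbers pair the samples, and the labels do not say that they do. With the replicate number as a block 0 genes and 0 ligands were called.

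Of the ligand values under alternatives, 142 kept their direction and their side of the threshold, 6 passed it (the DESeq2 and quality weight calls) and 1 changed sign. With each library left out in turn, the log2 fold change of Cxcl13 lay between -0.42 (without EKO replicate 3) and 2.30. Those of the overlapping receptors lay between -0.020 (without WT replicate 2) and 0.53 for Cxcr3, -0.069 (without WT replicate 2) and 0.52 for Cxcr4, and -1.01 (without EKO replicate 3, and -0.30 without WT replicate 1) and 0.82 for Cxcr5. They lay between -0.18 (without EKO replicate 3) and 0.26 for Cxcr6 and between -0.032 (without WT replicate 1) and 1.02 for Cx3cr1. For Ackr1 they lay between -0.54 (without EKO replicate 1) and -0.046 (without EKO replicate 3). Cxcl5 could not be tested at 1 CPM in 3 libraries. Of the ligands tested, Cxcl5, Cxcl10 and Cxcl11 stayed under 70 counts in every library.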
